A study of Mus musculus with 6 samples.

Results

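The scavenger receptor genes Msr1, Cd36, Scarb1, Scarb2, Cd68, Colec12, Lrp1 and Olr1 were examined in microglia of WT mice by RNA-seq. These 8 genes were chosen by name among the 38924 genes of the count tables, as scavenger receptors that are not used as markers of the macrophages at the borders of the brain, and each was found under its Ensembl identifier. The libraries came from C57BL/6 female mice without a transgene or treatment, 3 at 5 weeks and 3 at 24 weeks of age, with 1 library per mouse, and the Het mice of the same study were not analysed here. Microglia were purified from whole brains, after the meninges and myelin had been removed, with beads against CD11b, an integrin that other macrophages, monocytes and neutrophils also carry. The libraries of each age shared a sequencing lane, and the effects of age and of lane cannot be told apart here.

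Scavenger receptors are surface and endosomal proteins that bind a broad range of modified or polyanionic ligands, such as oxidized lipoproteins, amyloid, cell debris and bacterial products, and carry them into the cell. They are grouped in classes by structure. Msr1 and Colec12 are collagen-like trimers of class A, Cd36, Scarb1 and Scarb2 share the looped, doubly anchored fold of class B, Cd68 is a mucin-like glycoprotein of late endosomes and lysosomes, Olr1 is a C-type lectin that takes up oxidized LDL, and Lrp1 is a very large receptor of the LDL receptor family that clears apolipoprotein E, protease complexes and many other ligands. In brain tissue these genes are not restricted to microglia: Cd36 and Scarb1 are also made by endothelial cells, and Lrp1 by neurons, astrocytes and mural cells.

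The 5-week libraries held 23198065 to 46434788 counts on genes and the 24-week libraries 10410625 to 13554336. The defining markers of microglia were high in all 6 libraries, with Csf1r at 7719 ± 1731 normalized CPM at 5 weeks and 6526 ± 387 at 24 weeks, and Cx3cr1 at 4867 ± 162 and 4203 ± 308 (SD, n = 3 per age). Normalized CPM are counts relative to a library total that was scaled by TMM factors. Among the markers of other cells, the choroid plexus gene Ttr was the highest (5848 ± 1362 and 5069 ± 656). Library 3 of each age stood apart from the others of that age on the second principal component, which held 12.2% of the variance, and 24-week replicate 3 had 78 counts of Xist where the other libraries had 31677 to 59021, with 0 counts on Y-linked genes in all libraries. Read pairs that fell outside exons made up 26.9% to 27.1% of all rows' counts at 5 weeks and 37.2% to 42.6% at 24 weeks. Those at several positions made up 32.7% to 35.5% at 5 weeks and 22.5% to 23.5% at 24 weeks. Both shares thus moved with age, and their part in the changes below was not tested. Results are given without library 3 of either age where these libraries matter.

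Per kilobase of exon, the 8 genes spanned almost the whole range of expressed genes. Cd68 had the highest level, with 227 ± 42.4 normalized CPM per kilobase at 5 weeks and 226 ± 19.8 at 24 weeks (SD, n = 3), which placed it above 99.0% and 99.3% of the genes tested. Lrp1 followed with 103 ± 37.7 and 144 ± 8.09, and Scarb2 with 47.3 ± 0.689 and 41.0 ± 2.21. The libraries of these 3 genes did not overlap with each other, so that their order was the same in all 6. Cd36 had a level of 16.1 ± 5.17 per kilobase at 5 weeks and 8.11 ± 1.5 at 24 weeks. Scarb1 (3.59 ± 0.735 and 4.12 ± 0.448), Msr1 (3.77 ± 0.845 and 2.12 ± 0.0289) and Colec12 (3.09 ± 0.518 and 1.40 ± 0.203) were at similar levels per kilobase at 5 weeks and overlapped there. Olr1 was lowest, at 0.405 ± 0.0626 and 0.476 ± 0.0763, above 11.0% and 11.2% of the genes tested. The order of the middle genes depended on the length used, since with the longest transcript in place of all exons the mean of Scarb1 over the 6 libraries was 10.6 in place of 3.85 and its libraries overlapped with those of Cd36.

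**Figure D1:**
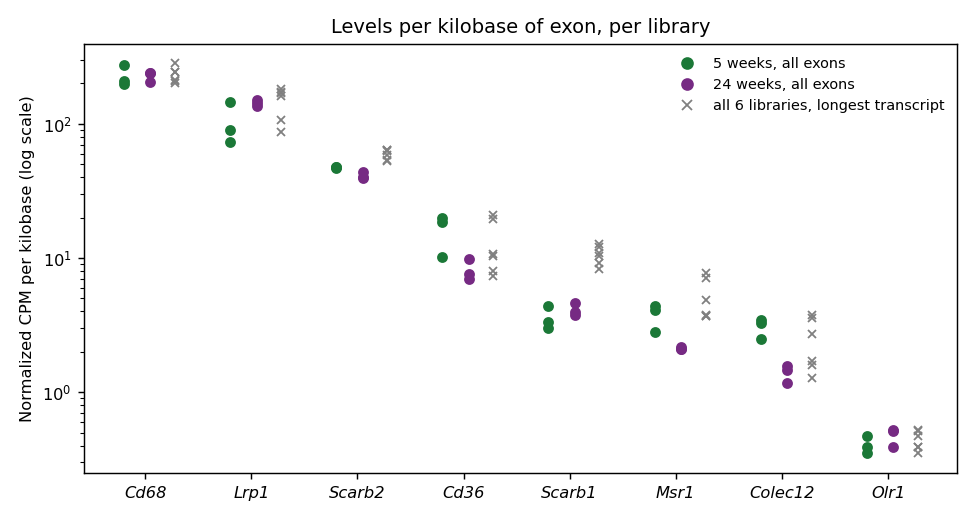
Level of each scavenger receptor gene in normalized CPM per kilobase (y axis, log scale) in each WT library, with green points for 5 weeks, purple points for 24 weeks (length of all exons) and grey crosses for the same 6 libraries with the length of the longest transcript. Cd68, Lrp1 and Scarb2 do not overlap with each other, while Scarb1, Msr1 and Colec12 do at 5 weeks, and Olr1 does not exceed 0.523.

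Between 5 and 24 weeks, Colec12, Cd36 and Msr1 fell and none of the 8 genes rose. These 3 of 8 genes stand beside 28.8% of the 16157 genes tested that passed in either direction and 13.3% that passed as lower (15.5% as higher), by edgeR's quasi-likelihood test at an adjusted p under 0.05. The median log2 fold change (24 weeks minus 5 weeks) of the 8 genes was -0.10, against 0.00 over all genes tested, and their median absolute change was 0.36 against 0.33. Normalized CPM of the younger and older libraries did not overlap in 4 genes, the 3 that passed and Scarb2, all of them lower at 24 weeks. Of all genes tested, 45.1% did not overlap in either direction, with 22.1% lower and 23% higher at 24 weeks. With each library left out in turn the same 3 genes remained lower in all 6 fits, in which 7.03% to 17.7% of all genes tested were lower, and 0 to 2 genes rose. The 2 rises, in Scarb1 and Lrp1, came without 5-week replicate 3, where 20.3% of all genes tested passed as higher.

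**Figure D2:**
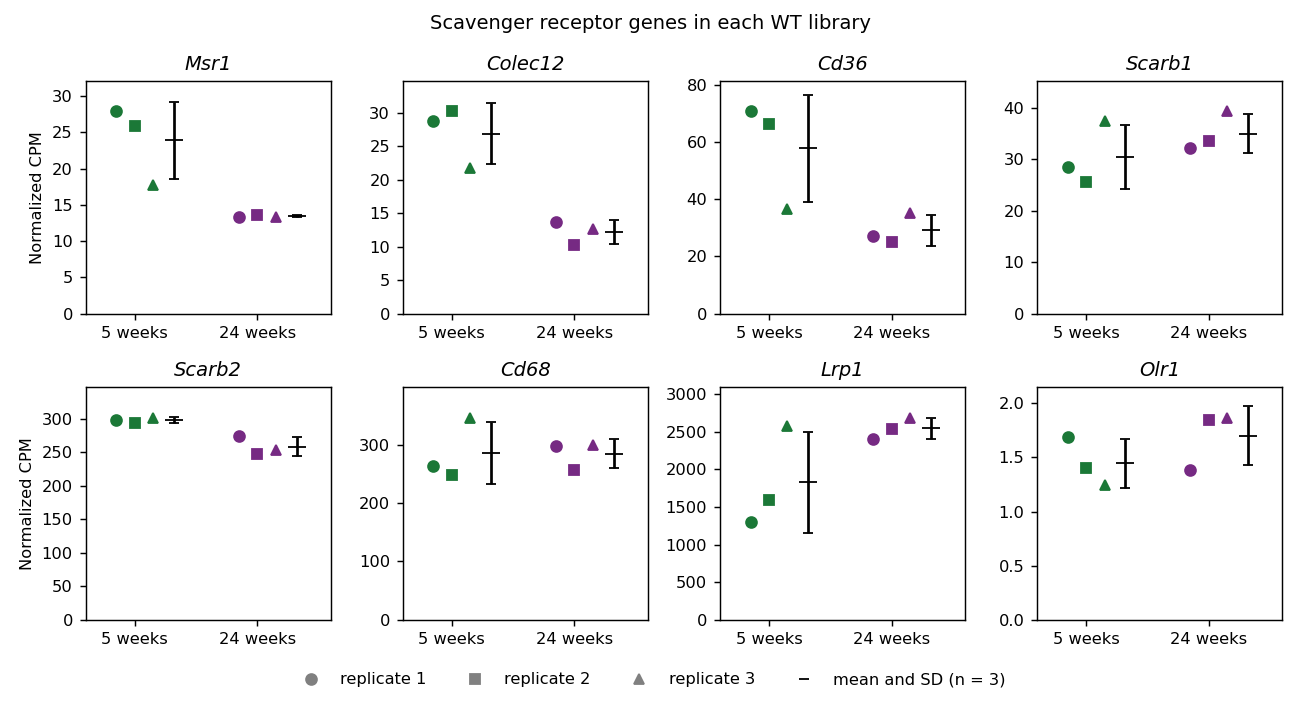
Normalized CPM of the 8 scavenger receptor genes in each WT library at 5 weeks (green) and 24 weeks (purple), with a symbol for each replicate number and the mean and SD (n = 3) in black; each y axis starts at 0. Msr1, Colec12, Cd36 and Scarb2 do not overlap between the ages, and 5-week replicate 3 (triangle) lies nearest to the 24-week libraries in Msr1, Colec12 and Cd36 and among them in Lrp1.

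Of the class A receptors, Colec12, a collectin of vascular and macrophage-like cells (ENSMUSG00000036103, chromosome 18 of GRCm38 from 9707595 to 9882644, plus strand), had 28.8, 30.3 and 21.8 normalized CPM in replicates 1, 2 and 3 at 5 weeks and 13.7, 10.3 and 12.7 at 24 weeks. All 24-week libraries were below all 5-week libraries, on raw counts of 691 to 943 at 5 weeks and 136 to 188 at 24 weeks. Colec12 thus fell from a mean of 26.9 ± 4.52 to 12.2 ± 1.77 (SD, n = 3), the largest change of the 8 genes (log2 fold change -1.14, SE 0.16, adjusted p = 0.000663 by edgeR, 2.20-fold lower). Msr1, the macrophage scavenger receptor SR-A that binds acetylated LDL and amyloid (ENSMUSG00000025044, chromosome 8 from 39581685 to 39642673, minus strand), had 27.9, 26.0 and 17.8 normalized CPM at 5 weeks. At 24 weeks Msr1 had 13.4, 13.7 and 13.4, so that the older libraries were nearly level while the younger ones spread. It fell from a mean of 23.9 ± 5.36 to 13.5 ± 0.183 (-0.82 on the log2 scale, SE 0.17, adjusted p = 0.00498, 1.77-fold lower). Under 17 alternative settings Colec12 lay between -1.29 and -0.89 and Msr1 between -0.99 and -0.57, and both passed in all of them.

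Of the class B genes Cd36 fell, and Scarb1 and Scarb2 did not pass. Cd36, which takes up long-chain fatty acids, oxidized LDL and amyloid (ENSMUSG00000002944, chromosome 5 from 17781690 to 17888801, minus strand), had 70.7 and 66.1 normalized CPM in the 5-week replicates 1 and 2 but 36.5 in replicate 3. The 24-week replicates had 27.1, 25.1 and 35.2, so the gap between the ages was only that between 5-week replicate 3 and 24-week replicate 3. Cd36 fell from 57.7 ± 18.6 to 29.1 ± 5.38 (-0.99 on the log2 scale, SE 0.23, adjusted p = 0.00816 by edgeR, 1.98-fold lower). It also passed without 5-week replicate 3 (-1.23, adjusted p = 0.000121), without 24-week replicate 3 (-1.15, adjusted p = 0.0102) and without both (-1.38). Scarb1, the HDL receptor SR-BI (ENSMUSG00000037936, chromosome 5 from 125277087 to 125341094), had 28.5, 25.6 and 37.5 normalized CPM at 5 weeks and 32.2, 33.5 and 39.3 at 24 weeks. The ages overlapped and the difference did not pass (log2 fold change 0.19, SE 0.15, adjusted p = 0.378). It passed without 5-week replicate 3 (0.38, adjusted p = 0.0265) and turned to -0.0244 after the removal of length and GC trends. Scarb2, the lysosomal membrane protein LIMP-2 that carries glucocerebrosidase to lysosomes (ENSMUSG00000029426, chromosome 5 from 92441314 to 92506833), varied least between libraries. It had 298, 293 and 302 normalized CPM at 5 weeks and 274, 247 and 253 at 24 weeks. The ages did not overlap, but the difference was small and did not pass (log2 fold change -0.21, SE 0.10, adjusted p = 0.154 by edgeR). This difference passed after trends on GC content and the length of all exons were taken out (-0.32, adjusted p = 0.0134). Within each library, reads on Cd36 numbered 2.48, 2.59 and 0.971 for each read on Scarb1 at 5 weeks and 0.841, 0.748 and 0.895 at 24 weeks, a ratio on which library scaling has no bearing. In this ratio, too, 5-week replicate 3 lay next to the 24-week libraries.

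Cd68, the lysosomal glycoprotein used as a stain for phagocytes (ENSMUSG00000018774, chromosome 11 from 69664213 to 69666153, minus strand), was level between the ages. It had 263, 247 and 346 normalized CPM at 5 weeks and 298, 256 and 300 at 24 weeks, with the highest value in 5-week replicate 3 (log2 fold change -0.00, SE 0.14, adjusted p = 0.984 by edgeR). The counts of the receptors that fell, set against those of Cd68 in the same library, separated 5-week replicates 1 and 2 from the other 4 libraries. Cd36 had 26.9 and 26.7 counts per 100 of Cd68 in these replicates, 10.5 in 5-week replicate 3 and 9.08, 9.79 and 11.7 at 24 weeks. Msr1 had 10.6, 10.5 and 5.14 per 100 of Cd68 at 5 weeks and 4.48, 5.34 and 4.46 at 24 weeks. For Colec12 the values were 10.9, 12.2 and 6.29 at 5 weeks and 4.60, 4.02 and 4.24 at 24 weeks, without overlap.

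Lrp1 (ENSMUSG00000040249, chromosome 10 from 127538161 to 127621148, minus strand) took most of the reads on the 8 genes, from 64.5% to 77.2% at 5 weeks and from 78.5% to 81.2% at 24 weeks. Its normalized CPM were 1304, 1595 and 2578 at 5 weeks and 2402, 2542 and 2688 at 24 weeks. The younger replicates 1 and 2 were thus far below the older libraries while replicate 3 lay among them, and the difference did not pass edgeR's test (log2 fold change 0.48, SE 0.22, adjusted p = 0.121). It passed without 5-week replicate 3 (0.82, adjusted p = 0.000630) but was absent after trends on GC content and the length of all exons were taken out (-0.01, adjusted p = 0.983). Lrp1 has 17717 bases of exon in 88 separate blocks, the longest of the 8 genes. Olr1, the lectin-like receptor LOX-1 (ENSMUSG00000030162, chromosome 6 from 129485244 to 129507165, minus strand), was barely expressed, with 54, 32 and 54 raw counts at 5 weeks and 19, 25 and 20 at 24 weeks. These gave 1.69, 1.40 and 1.25 normalized CPM and 1.39, 1.85 and 1.87, with overlap between the ages (log2 fold change 0.23, SE 0.29, adjusted p = 0.578). The SE of Olr1 is larger than the whole difference seen for Scarb2, so a change of that size was not detectable at this depth.

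**Figure D3:**
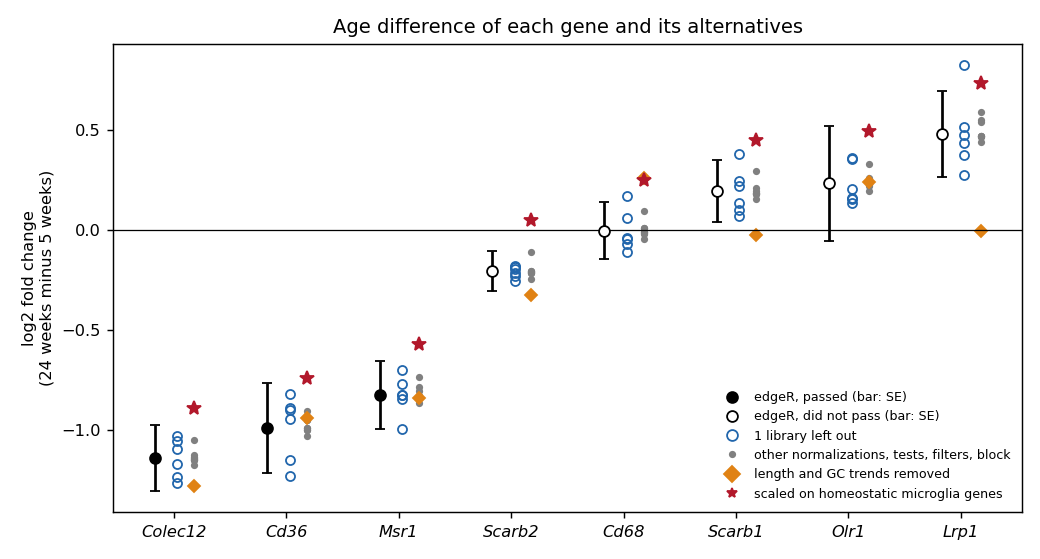
For each gene, the log2 fold change from 5 to 24 weeks with SE from edgeR (black where the gene passed, white where it did not), beside the values with 1 library left out (blue circles), under other normalizations, tests, filters and the replicate block (grey), with length and GC trends removed (orange) and with scaling on homeostatic microglia genes (red). Colec12, Cd36 and Msr1 are at -0.57 or lower in all of these, and Lrp1 runs from -0.01 to 0.82.

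5-week replicate 3 differed from the other 5-week libraries most in Cd36 and Lrp1. On the log2 scale it was 0.83 above the mean of replicates 1 and 2 in Lrp1, 0.47 in Scarb1 and 0.44 in Cd68. It was lower in Cd36 (-0.91), Msr1 (-0.60), Colec12 (-0.44) and the low Olr1 (-0.31) and level in Scarb2 (0.03). Over all genes tested, the 5th and 95th percentiles of this difference were -0.73 and 0.60, so that Cd36 and Lrp1 lay outside this range and the other receptors within it. Its share in the changes with age was not tested beyond leaving it out.

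The genes whose values followed each receptor most closely over the 6 libraries were sought among 10009 genes of sufficient level. Likeness was the root mean square difference of log2 CPM after each gene was centred on its own mean. The nearest genes to Colec12 were Mrc1 (0.0694) and F13a1 (0.0969), which encode the mannose receptor and a transglutaminase subunit and are both markers of border-associated macrophages, followed by the pseudogene Gm1821 (0.106), whose counts may come from near-identical copies. Since Mrc1 was picked for its likeness over these libraries, the near-constant 3.66 to 4.22 counts of Colec12 per 100 of Mrc1 restate that choice, and Mrc1 itself ranged from 281 to 741 normalized CPM. Msr1 had 3.45 to 4.87 and Cd36 7.06 to 10.9 counts per 100 of Mrc1, in both cases with overlap between the ages. The nearest gene to Cd68 was Spi1, which encodes the myeloid transcription factor PU.1 (0.0230), with Zfp691 and Nucb1 next (0.0285 and 0.0398). Cd68 had 171 to 180 counts per 100 of Spi1 in the 6 libraries, which likewise follows from how Spi1 was picked. Cd36 was nearest to Ednrb, the endothelin B receptor (0.102), and to the transcripts B930036N10Rik and Gm12966 (0.102 and 0.138), and Msr1 to Tmx1, Atp6v1g1 and Arhgap19 (0.0571, 0.0593 and 0.0679). Among the genes close to Lrp1 were Soga1 and Tmcc3 (0.0789 and 0.0858). Scarb2 (Slc35b1, Gnpda1 and Tyw1), Scarb1 (Tnfrsf14, Cradd and Zfp446) and Olr1 (Tmem230, Nubpl and Yod1) were nearest to genes that also did not pass between the ages. This too follows from how the genes were picked, since likeness over these libraries includes the difference between the ages. Among the receptors themselves, Msr1, Cd36 and Colec12 differed from each other by 0.201 to 0.236 and from each of the other 5 by at least 0.366. These distances also include the difference between the ages, in which the 3 genes fell.

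**Figure D4:**
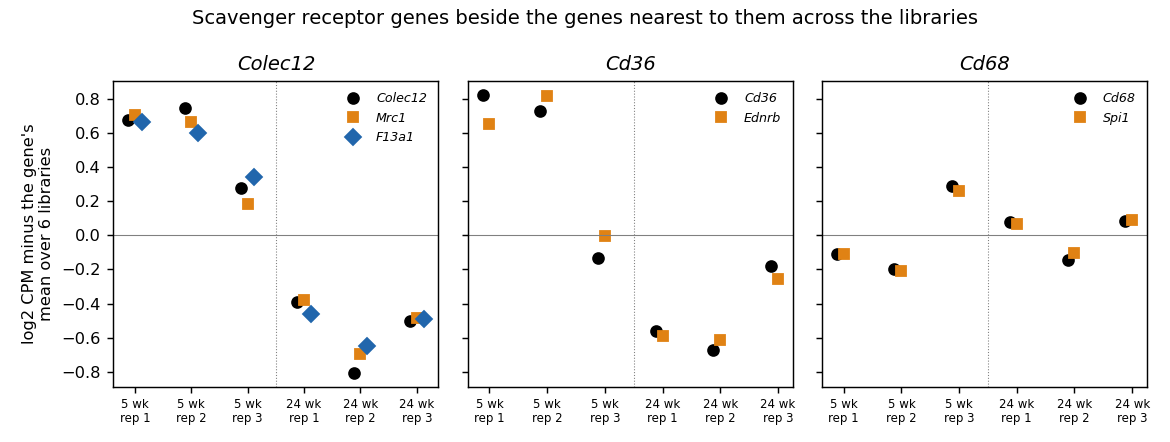
Log2 CPM minus the gene's mean over the 6 WT libraries (y axis) for Colec12 with Mrc1 and F13a1, Cd36 with Ednrb and Cd68 with Spi1, in each library (x axis); the dotted line divides 5 from 24 weeks. Colec12 lies at 0.0694 (root mean square) from Mrc1 and Cd68 at 0.0230 from Spi1.

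Markers of several other cell types moved with age in these libraries. By edgeR, 15.5% of all genes tested passed as higher and 13.3% as lower, and the counts below stand beside these shares. Of 12 markers of border-associated macrophages 9 fell, 0 rose and the median log2 fold change was -0.999, and their summed level ranged from 2658 to 3034 normalized CPM at 5 weeks and from 1812 to 1909 at 24 weeks, with none at 0. Mrc1 fell from 658 ± 124 to 318 ± 34.5 and F13a1 from 224 ± 25.7 to 107 ± 7.30 (SD, n = 3), while Stab1, the most abundant marker of this list, did not pass (log2 fold change -0.33, adjusted p = 0.152). These changes stand beside those of Colec12, Cd36 and Msr1, and in bulk libraries fewer cells of a type and less RNA per cell cannot be told apart; the part of such cells in the 3 falls was not tested. Of the 18 homeostatic microglia genes 6 fell and 1 rose, with a median of -0.22. When 1 library was left out, 3 (without 24-week replicate 2) to 8 of them fell. In these fits 7.03% (without 24-week replicate 2) to 17.7% of all genes tested passed as lower. With the libraries scaled on the homeostatic microglia genes, all genes tested shifted upwards by a median of 0.26. On that scale Cd36 (-0.74, adjusted p = 0.0241), Msr1 (-0.57, adjusted p = 0.0309) and Colec12 (-0.89, adjusted p = 0.00205) still fell, while Lrp1 (0.73, adjusted p = 0.0214) and Scarb1 (0.45, adjusted p = 0.0437) passed as higher, where 28.4% of all genes tested passed as higher and 4.67% as lower. Of 17 endothelial markers 15 rose, with summed levels of 533 to 601 normalized CPM at 5 weeks and 1069 to 1153 at 24 weeks, and of 11 mural cell markers 9 rose (156 to 186 and 304 to 349). None of either list fell or was at 0. Flt1, a VEGF receptor of endothelial cells, rose from 50.9 ± 3.36 to 214 ± 11.2. Of the meningeal fibroblast markers 1 of 10 rose and 1 fell. Their summed levels were 115 to 186 normalized CPM at 5 weeks and 256 to 267 at 24 weeks, and most of this sum lay in the marker that rose. Among neutrophil and monocyte markers 1 of 13 fell and 0 rose, with summed levels of 155 to 345 and 116 to 261 that overlapped between the ages. Of the remaining lists, T, NK and B cell markers (0 higher and 2 lower of 4 tested), astrocytes (1 and 4 of 10), oligodendrocytes and precursors (0 and 5 of 12), neurons (2 and 2 of 10), choroid plexus and ependymal cells (2 and 1 of 8) and age- and disease-associated microglia (1 and 3 of 15) were mixed or lower.

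Of 22 other scavenger receptor genes listed 18 were tested, of which 4 rose, 3 fell and 11 did not pass, with a median log2 fold change of 0.08, where 15.5% of all genes tested passed as higher and 13.3% as lower. The hemoglobin receptor Cd163 fell most (log2 fold change -1.09, SE 0.13, adjusted p = 0.000170), followed by Mrc1 (-1.05, SE 0.15, adjusted p = 0.000714) and the LPS co-receptor Cd14 (-0.47, SE 0.12, adjusted p = 0.0155). Cd163 and Mrc1 are also on the list of border-associated macrophages. The largest rises were in the endothelial lectin Clec1a (1.09, SE 0.31, adjusted p = 0.0223), the EGF-repeat receptor Megf11 (0.81, SE 0.22, adjusted p = 0.0196) and Scarf2, a relative of the endothelial scavenger receptor SREC (0.76, SE 0.21, adjusted p = 0.0209). These 3 were low, at 3.24 ± 0.466, 5.43 ± 1.01 and 14.6 ± 1.25 normalized CPM at 24 weeks. Marco, the bacteria-binding class A receptor of alveolar and splenic macrophages, had at most 1 count in a library and Cd163l1 had 0 in all of them. With each library left out in turn this list had 0 to 5 rises and 2 to 4 falls. There were 0 rises without 24-week replicate 2, 1 without 5-week replicate 1 or 24-week replicate 1 and 2 without 24-week replicate 3. In these fits, in the same order, 9.85%, 10.3%, 10.4% and 11.7% of all genes tested passed as higher, against 20.3% without 5-week replicate 3. The share that passed as lower ran from 7.03% to 17.7% over the fits with 1 library left out.

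**Figure D5:**
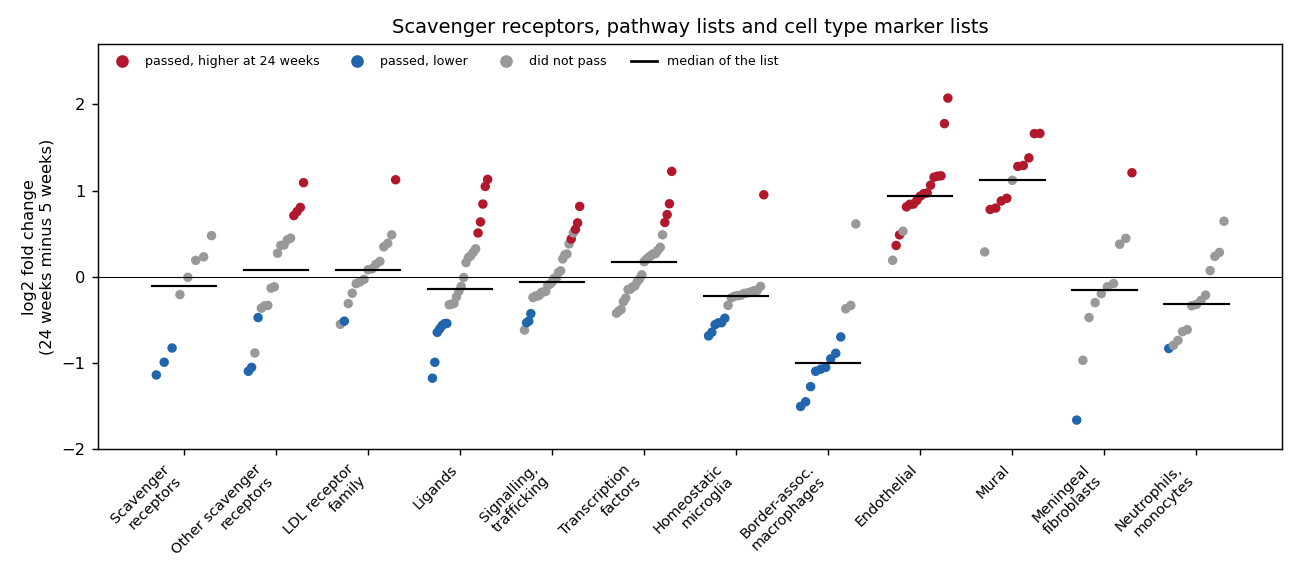
For each tested gene, the log2 fold change from 5 to 24 weeks, among the scavenger receptors, 5 pathway lists and 6 lists of cell type markers, sorted within each list; red and blue points passed as higher and lower and grey points did not pass, and black lines are medians. The markers of border-associated macrophages have a median of -0.999, those of endothelial cells 0.94 and those of mural cells 1.12.

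Among genes that work with these receptors, 15 of the LDL receptor family and its sorting proteins were tested. Of these 1 rose, 1 fell and 13 did not pass, where 15.5% of all genes tested passed as higher and 13.3% as lower. Without 5-week replicate 3 the list had 4 rises and 2 falls, where 20.3% of all genes tested passed as higher and 17.7% as lower. It had 2 rises without 5-week replicate 2, where 13.7% of all genes tested passed as higher. Lrpap1, the chaperone that keeps ligands off Lrp1 and its relatives in the endoplasmic reticulum, fell by edgeR's test from 121 ± 4.22 to 84.5 ± 7.85 normalized CPM (SD over 3 libraries, -0.51, SE 0.11, adjusted p = 0.00482). Lrp8, a receptor for reelin and apolipoprotein E, rose (1.13, SE 0.15, adjusted p = 0.000402). Of 24 ligand genes tested, 7 fell and 5 rose, where 13.3% of all genes tested passed as lower and 15.5% as higher. The falls ran from 3 (without 24-week replicate 2) to 9 with 1 library left out. In these fits 7.03% (without 24-week replicate 2) to 17.7% of all genes tested passed as lower. Apoe, a ligand of Lrp1, Scarb1 and Msr1, fell from 2032 ± 135 to 1023 ± 72.8 (-0.99 on the log2 scale, SE 0.13, adjusted p = 0.000310), and Apob (-1.17, SE 0.22, adjusted p = 0.00284) and the complement gene C1qb (-0.64, SE 0.16, adjusted p = 0.0110) fell as well. The rises were led by the tissue plasminogen activator Plat (1.13, SE 0.14, adjusted p = 0.000281), the matrix proteoglycan Bgn (1.05, SE 0.22, adjusted p = 0.00511) and the protease inhibitor A2m (0.84, SE 0.21, adjusted p = 0.0122), of which Plat and A2m are cleared by Lrp1 as complexes.

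Of 27 partners in signalling and trafficking, 4 rose and 3 fell, a share near that of all genes tested (28.8% in either direction). With 1 library left out the falls ran from 1 (without 5-week replicate 1 or 2 or 24-week replicate 2 or 3) to 5 and the rises from 3 to 7 (both without 5-week replicate 3). The shares of all genes tested also moved in these fits. They ran from 7.03% to 17.7% lower and from 9.85% to 20.3% higher, and both were largest without 5-week replicate 3. Fyn, a Src-family kinase that acts downstream of Cd36, fell from 37.0 ± 1.90 to 26.0 ± 1.68 normalized CPM (-0.51 on the log2 scale, SE 0.11, adjusted p = 0.00656), as did Vav3, a guanine nucleotide exchange factor (-0.53, SE 0.18, adjusted p = 0.0428), and Tlr4, the LPS receptor that can signal together with Cd36 (-0.43, SE 0.13, adjusted p = 0.0313). The caveolar protein gene Cav1 (0.82, SE 0.15, adjusted p = 0.00228), the shedding protease Adam10 (0.63, SE 0.12, adjusted p = 0.00289) and Furin, which cleaves the Lrp1 precursor into its chains (0.55, SE 0.12, adjusted p = 0.00745), rose. Of 25 transcription factors tied to scavenger receptor genes 4 rose and 0 fell by edgeR, a share near the 15.5% of all genes tested that passed as higher. With 1 library left out 2 (without 5-week replicate 1 or 2) to 8 (without 5-week replicate 3) rose and 0 to 1 fell. Without 5-week replicate 1, 2 or 3, in this order, 10.3%, 13.7% and 20.3% of all genes tested passed as higher. The rises were those of Ppard (1.22, SE 0.19, adjusted p = 0.000939), Klf2 (0.85, SE 0.22, adjusted p = 0.0140) and the sterol regulator Srebf2 (0.72, SE 0.12, adjusted p = 0.00118). Pparg, the nuclear receptor best known for driving Cd36 in macrophages, was low and did not pass, at 1.97 ± 0.650 and 2.26 ± 0.481 normalized CPM. Spi1 did not pass either (0.02, SE 0.13, adjusted p = 0.908). The split of these lists depended on the scaling. With the libraries scaled on homeostatic microglia genes, 28.4% of all genes tested passed as higher and 4.67% as lower. Beside these shares, 5 genes rose and 0 fell in the LDL receptor family, and 7 rose and 2 fell among the ligands. Among the signalling partners 8 rose and 0 fell, and among the transcription factors 10 rose and 0 fell. The falls of Lrpap1, Fyn, Vav3 and Tlr4 were thus lost.

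RefSeq promoter windows on GRCm38.p6 were held for 5 of the 8 genes, Cd36, Scarb2, Cd68, Lrp1 and Olr1. The 250 bases before the RefSeq gene start are shown for Cd36, the receptor with a window that fell, for Cd68, which stayed level, and for Lrp1, whose libraries were split, each 5′ to 3′ on the minus strand. Capitals mark matches on either strand to GGAAGT (a core of PU.1 and other ETS sites), TGACTCA (an AP-1 site), AGGTCA (a nuclear receptor site), GGGCGG (a GC box) and CCAAT, none of which contains another. The windows of Cd36 and Scarb2 lie inside the annotated gene spans, since other transcripts of these genes start further upstream, and the counts do not separate the starts.
Cd36 (chr5:17835897-17836146): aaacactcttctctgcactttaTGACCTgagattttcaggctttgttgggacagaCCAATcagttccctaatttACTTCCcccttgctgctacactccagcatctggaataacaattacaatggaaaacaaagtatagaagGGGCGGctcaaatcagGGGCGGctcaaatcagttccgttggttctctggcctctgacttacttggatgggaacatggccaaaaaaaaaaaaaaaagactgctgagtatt
Cd68 (chr11:69666171-69666420): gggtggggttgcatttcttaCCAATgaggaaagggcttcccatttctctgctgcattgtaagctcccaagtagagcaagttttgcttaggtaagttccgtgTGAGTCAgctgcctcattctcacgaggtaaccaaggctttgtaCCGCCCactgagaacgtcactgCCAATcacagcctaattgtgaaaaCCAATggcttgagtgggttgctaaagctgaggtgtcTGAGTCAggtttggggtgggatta
Lrp1 (chr10:127621149-127621398): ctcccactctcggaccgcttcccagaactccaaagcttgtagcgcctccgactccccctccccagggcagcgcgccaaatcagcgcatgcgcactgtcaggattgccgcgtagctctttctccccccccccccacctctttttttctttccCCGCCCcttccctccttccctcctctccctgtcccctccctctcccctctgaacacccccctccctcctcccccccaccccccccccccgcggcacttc
The Cd36 window was AT-rich, with 43.2% G and C and 3 CG dinucleotides, and held 1 GGAAGT match, 1 AGGTCA match, 2 GC boxes and 1 CCAAT. The Cd68 window held 2 matches to TGACTCA, 1 GC box and 3 matches to CCAAT, with 49.2% G and C. That of Lrp1 was rich in G and C (67.2%, 13 CG dinucleotides) and held 1 GC box and no other match. Over all 32851 promoter windows of this length the median was 52.4% G and C and 6 CG dinucleotides. GGAAGT occurred in 19.7% of them, TGACTCA in 4.46%, AGGTCA in 14.0%, GGGCGG in 32.7% and CCAAT in 33.8%. Of the windows not shown, that of Olr1 held 1 TGACTCA, 1 AGGTCA and 1 CCAAT, and that of Scarb2, with 65.6% G and C, held 1 GC box. A match says only that these letters are present.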

How the data were processed

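RNA-seq libraries of CD11b-selected microglia from WT mice (3 at 5 weeks, 3 at 24 weeks) were analysed. The deposited values are raw counts of read pairs per Ensembl gene, made by the authors from reads trimmed with trim_galore, aligned to GRCm38 with TopHat2 2.0.13 and counted on exons of the reverse strand with HTSeq 0.6.1, pairs at several positions being left out. The 5 rows that name no gene, 60.6% to 65.8% of all rows' counts, were dropped. Symbols, positions and lengths came from GENCODE mouse release M21 (37607 of 38924 identifiers matched), promoters from RefSeq. No other gene shared exon bases with the 8 genes.

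The ages were compared with edgeR 4.0.16 (R 4.3.3): TMM factors, default filter by age (16157 genes), quasi-likelihood fit on age alone, Benjamini-Hochberg adjustment over all genes, threshold 0.05. SE is the log2 fold change over the square root of F. The script was tested on simulated data. Depth was 10410625 to 46434788 counts on genes per library. The p-values measure the spread between 3 mice per age. Alternatives were DESeq2 1.42.0, limma-voom (limma 3.58.1), other scalings and filters, protein-coding genes only, removal of length and GC trends by loess, a replicate block and leaving out libraries. Beside the 8 genes, up to 3 of the largest called changes in each direction of each pathway list and up to 3 of the most abundant markers of each cell type list were named, and the 3 nearest genes to each receptor, except that some genes are not reported here; other named genes (Pparg, Spi1, Stab1's share, Marco, Cd163l1) were picked after their values were seen, as were the ratios between genes and the promoter motifs. The genes and lists were chosen with earlier results of these data known.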

Additional observations from a re-analysis of the deposited data

How the results depend on the processing

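Colec12, Cd36 and Msr1 kept their direction and passed under all 17 alternatives, with adjusted p of at most 0.00535, 0.0464 and 0.0309, and the number of the 8 genes that fell was 3 in each, except for 4 with length and GC trends removed. Olr1 and Cd68 passed in none. With scaling on homeostatic microglia genes, which shifted the median of all genes by 0.26, Scarb1 (0.45) and Lrp1 (0.73) passed, 2 genes rose, and Scarb2 (0.0473) and Cd68 (0.25) reversed. On that scale the pathway lists together had 36 higher and 4 lower, against 18 and 14, and the cell type lists 16 lower, against 34. Over all genes tested, 28.4% passed as higher and 4.67% as lower on that scale, against 15.5% and 13.3%. With length and GC trends removed, Scarb1 (-0.0244), Lrp1 (-0.00513) and Cd68 (0.26) reversed and Scarb2 passed (-0.32); the cause was not tested. Cd68 also reversed with total counts (0.10), limma-voom (0.0118) and without both replicates numbered 3 (0.13), always within 0.26 of 0. Without both of these, an alternative chosen after seeing the data, Lrp1 passed (0.78), 1 gene rose and the pathway lists had 30 higher. In that fit 19.5% of all genes tested passed as higher. With the longest transcript as length, the mean levels of Msr1, Scarb1 and Scarb2 were 5.14, 10.6 and 59.1 per kilobase.

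With each library left out in turn, the log2 fold change ran from 0.27 to 0.82 for Lrp1, from 0.0682 to 0.38 for Scarb1 and from -0.11 to 0.17 for Cd68. The number of the 8 genes that rose ran from 0 to 2, and the pathway lists together had 11 to 30 higher and 7 to 20 lower. Leaving out 5-week replicate 3 gave 30 higher, where 20.3% of all genes tested passed as higher. Leaving out 24-week replicate 2 gave 11 higher and 7 lower, where 9.85% of all genes tested passed as higher and 7.03% as lower.

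The replicate numbers did not pair the samples. After the mean of each age was subtracted from each gene, the deviations of same-numbered libraries correlated at only 0.0656, 0.0888 and -0.0451. With a replicate block Lrp1 passed (0.54, adjusted p = 0.0471 by edgeR), 1 of the 8 genes rose and Cd68 reversed (0.00834); genes called over all genes went from 4646 to 4375. Depth limits Olr1, which was left out where at least 50 counts in every library were required.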
